A study of Mus musculus with 2 samples.

Results

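Caspases are the proteases that carry out programmed cell death, and the mitochondrial IAP antagonists are proteins that lift the block which inhibitor of apoptosis proteins (IAPs) place on them. The genes described here are Casp1, Casp4, Casp2, Casp9, Apaf1, Casp6, Htra2 and Diablo, chosen by symbol, and 7 of the 8 were measured among the 19059 genes of the count matrices. Diablo, which encodes SMAC, was not analysed here. The cells came from orthotopic tumors grown in C57BL/6J mice from mGSC, a single mouse glioblastoma stem cell line of genotype Trp53+/- and Nf1+/-, so tumor cells of both groups share that line and its alleles. Mice received either vehicle or Xevinapant, an oral SMAC mimetic that targets IAPs, daily for about a week, and tumors were dissociated directly afterwards. Animals were bought as young adult females. Each group is a single pool with its own batch date, so treatment and batch cannot be told apart. The labels name total RNA for vehicle and polyA RNA for Xevinapant. File names of the Xevinapant matrices say Vehicle, and the label of the sample was followed.

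Apoptosis through mitochondria starts when cytochrome c leaves the organelle and binds APAF1, which assembles into the apoptosome and activates the initiator caspase-9. Executioner caspases then cut the substrates of the dying cell. XIAP and the cellular IAPs hold caspases in check, SMAC and HTRA2 released from mitochondria relieve that hold, and a SMAC mimetic imitates the first of these. Caspase-1 and caspase-4 (the mouse enzyme is also called caspase-11) belong instead to the inflammatory branch, in which inflammasomes lead to cytokine maturation and pyroptosis, and in brain tumors this machinery is best known from microglia and infiltrating myeloid cells. Levels of mRNA do not show whether a caspase was active, because these enzymes are made as inactive precursors.

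Casp1 lies on chromosome 9 at 5298517 to 5307265 (plus strand, GRCm38, GENCODE M21), and Casp4 follows on the same strand at 5308828 to 5336783, with 1562 bp between them. Casp12, another inflammatory-type caspase gene, lies next at 5345430 to 5373032. The other members are apart: Casp2 at chromosome 6, 42264985 to 42282508 (plus), Casp6 at chromosome 3, 129901425 to 129914103 (plus), Casp9 at chromosome 4, 141793612 to 141815976 (plus), Apaf1 at chromosome 10, 90989311 to 91082770 (minus), and Htra2 at chromosome 6, 83051266 to 83055273 (minus). Diablo is annotated at chromosome 5, 123509765 to 123524176 (minus).

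The promoters are shown for the 5 members called in the AC-like state described below: Casp1, Casp4 and Casp6, which were higher there, and Casp2 and Apaf1, which were lower. Each is 300 bases from RefSeq (build GRCm38.p6), from 250 bases before to 50 after the gene start, written 5′ to 3′ on the strand of the gene, with every CpG in capitals, since CpG content is compared between them. They span chr9:5298267-5298566 (plus), chr9:5308599-5308898 (plus), chr3:129901165-129901464 (plus), chr6:42264735-42265034 (plus) and chr10:91082694-91082993 (minus).
Casp1: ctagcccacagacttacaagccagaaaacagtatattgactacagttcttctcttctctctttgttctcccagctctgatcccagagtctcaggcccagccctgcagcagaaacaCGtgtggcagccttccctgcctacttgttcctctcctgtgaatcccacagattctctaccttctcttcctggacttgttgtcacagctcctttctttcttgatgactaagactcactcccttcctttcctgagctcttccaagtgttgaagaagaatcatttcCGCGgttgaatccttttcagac
Casp4: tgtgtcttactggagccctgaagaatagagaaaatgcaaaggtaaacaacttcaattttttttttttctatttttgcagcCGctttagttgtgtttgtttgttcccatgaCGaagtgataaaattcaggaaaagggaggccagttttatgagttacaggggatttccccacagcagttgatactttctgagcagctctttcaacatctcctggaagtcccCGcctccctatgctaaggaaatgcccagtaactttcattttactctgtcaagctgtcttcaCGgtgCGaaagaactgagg
Casp6: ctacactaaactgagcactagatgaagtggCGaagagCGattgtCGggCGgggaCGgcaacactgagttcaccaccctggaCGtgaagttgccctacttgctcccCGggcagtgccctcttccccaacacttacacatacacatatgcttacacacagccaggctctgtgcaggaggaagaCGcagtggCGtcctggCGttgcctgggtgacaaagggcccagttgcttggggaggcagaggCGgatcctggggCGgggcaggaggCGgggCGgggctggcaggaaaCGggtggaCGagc
Casp2: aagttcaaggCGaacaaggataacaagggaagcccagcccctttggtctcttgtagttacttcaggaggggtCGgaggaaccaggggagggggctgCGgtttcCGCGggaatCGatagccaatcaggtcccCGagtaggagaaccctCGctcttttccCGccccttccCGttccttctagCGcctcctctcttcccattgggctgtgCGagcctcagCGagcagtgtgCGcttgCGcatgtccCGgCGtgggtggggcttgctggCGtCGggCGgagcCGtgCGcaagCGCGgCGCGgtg
Apaf1: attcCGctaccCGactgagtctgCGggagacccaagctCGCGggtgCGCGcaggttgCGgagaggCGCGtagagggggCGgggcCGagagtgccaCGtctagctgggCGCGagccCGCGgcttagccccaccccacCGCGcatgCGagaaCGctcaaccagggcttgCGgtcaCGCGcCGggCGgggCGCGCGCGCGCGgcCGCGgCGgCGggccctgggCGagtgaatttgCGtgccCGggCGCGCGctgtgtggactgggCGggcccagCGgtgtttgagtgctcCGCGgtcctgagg

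The neighbouring inflammatory caspases had the fewest CpG among the members, 3 for Casp1 and 5 for Casp4, against a median of 7 over 27025 promoters. Of all promoters, 23.8% had fewer CpG than Casp1 and 38.3% fewer than Casp4, so neither count was unusual. The other members were richer, with 16 CpG for Casp6, 26 for Casp2, 28 for Casp9, 42 for Diablo and 46 for Apaf1, more than 98.4% of all promoters. Promoters were matched for 7 of the 8 members, and Htra2 was not among them. A search of both strands for a GAS element (TTCNNNGAA, in 8.47% of promoters), a core interferon-stimulated response element (GAAA, any pair of bases, GAAA, in 3.49%) and a TATA box (TATAAA, in 14.2%) found none of the 3 in any of these windows, which says only that those letters are not there. A GAS element can share its last GAA with the interferon element.

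The 8 matrices, 4 per group, held 71835789 to 300206053 UMIs (unique molecular identifiers, each a counted RNA molecule) with medians of 7452 to 14027 per barcode, and 54574 of 56943 barcodes were kept. Vehicle 1 and 3, Xevinapant 1 and 2, and Xevinapant 3 and 4 resembled each other closely. Their expression profiles gave a reduced chi-square between 3.55 and 15.8, against 85.2 to 222 for the 9 other pairs within a group. Each alike pair was summed and counted once, which left 3 vehicle and 2 Xevinapant samples. The study used 4 tumors in each group, but nothing ties a matrix to an animal, so p-values measure the spread between these samples. Cells were gated by UMIs of marker genes. The malignant gate used glial marker genes without a copy-number step, so host glial cells passing it were not told apart from tumor cells. Class names below stand for the gates. They hold 36673 malignant cells, 1031 macrophages and monocytes, 500 microglia, 425 fibroblasts, 208 neutrophils, 201 endothelial cells, 58 mural cells and 41 lymphocytes, and 15427 barcodes passed no gate. Of the 10 genes that led the mural gate, 0 were its own markers, while every other gate had between 1 and 4. No full barcode was shared within a group, and across groups 178 to 528 were shared by matrices that used the same probe barcode in separate pools.

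Levels are given as CPM, a gene's share of all UMIs of its class in counts per 1e6, in the order vehicle 1 and 3, vehicle 2, vehicle 4, Xevinapant 1 and 2, Xevinapant 3 and 4. The assay reads RNA through gene probes, so levels are compared between cells for 1 gene, not between genes. Fold changes between classes come from edgeR's quasi-likelihood test on summed counts with the sample as a block and Benjamini-Hochberg adjustment over all genes. They use TMM scaling, which raised the microglial, macrophage, neutrophil and fibroblast fold changes by 0.44 to 0.51 (log2, median over all genes) over plain library size. Changes are therefore best read against the median of all genes, which was -0.12 in microglia, -0.09 in macrophages and monocytes, -0.58 in neutrophils and -0.06 in fibroblasts.

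Among cell classes, the inflammatory caspases and the apoptosome genes were highest outside the malignant cells, and Casp2 was lower in microglia, macrophages and monocytes, and fibroblasts. Of 49 comparisons of a member with its level in malignant cells, 26 passed an adjusted p of 0.05, and 17 of these did so under each alternative that gave them a value. Casp1 in lymphocytes, among the 17, had no value under stricter gates, with each matrix as 1 sample, or without either Xevinapant sample. Microglia were higher in 4 members and lower in 1, where 30.5% of all tested genes were higher and 32.9% lower. The same counts of 4 and 1 held for macrophages and monocytes (32.2% and 34.3% of all genes) and for fibroblasts (26.4% and 23.8%). In the other classes the called members were all higher: 4 in neutrophils (23.0% of all genes higher, 28.8% lower), 3 in endothelial cells (20.7% and 23.5%), 2 in mural cells (13.1% and 10.5%) and 2 in lymphocytes (12.9% and 10.1%).

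**Figure D1:**
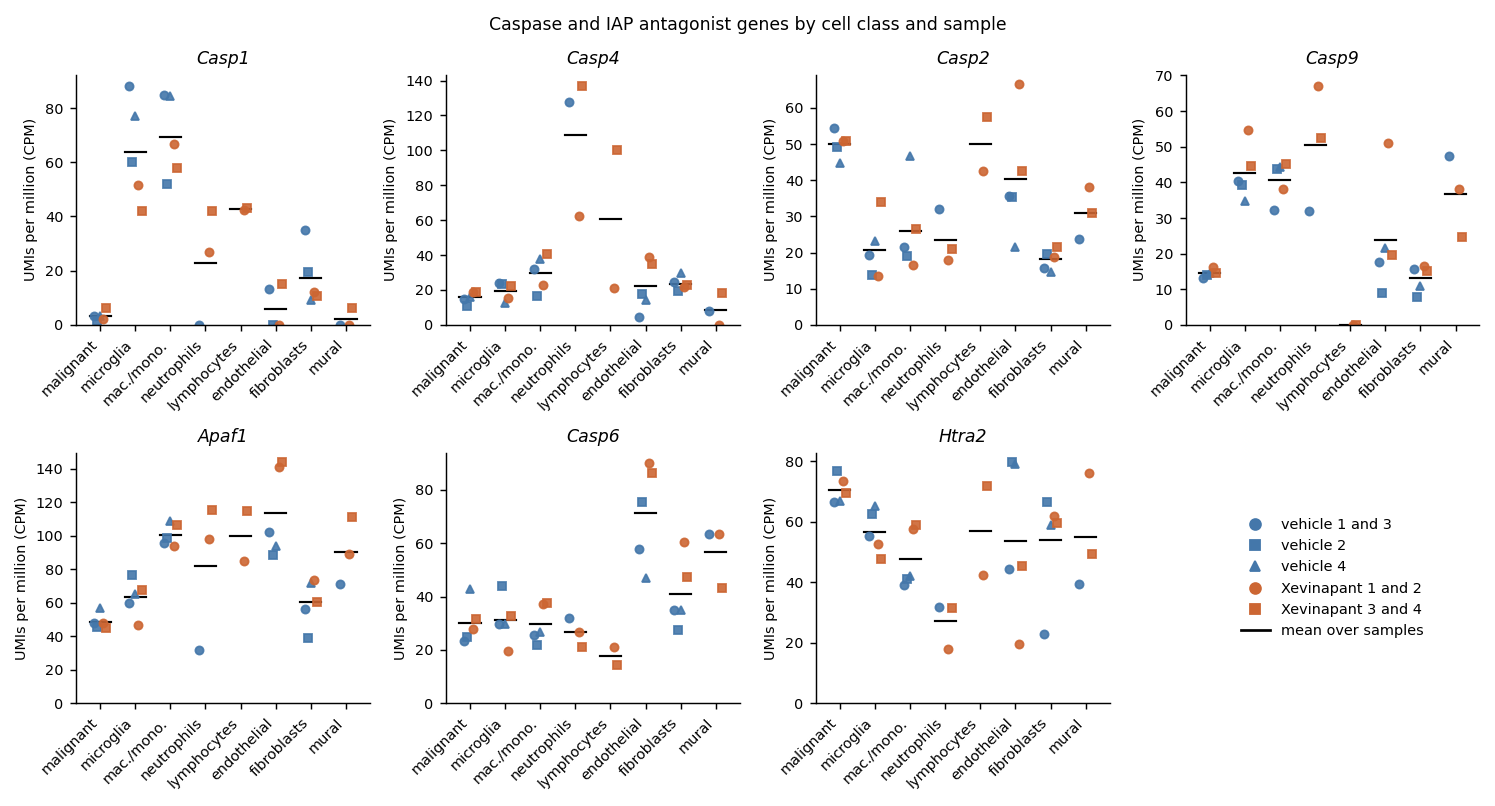
Level of each measured member in 8 cell classes. The vertical axis is CPM of the class on a linear scale from 0, each point is 1 of 5 samples (blue vehicle, orange Xevinapant; 3 or 2 samples for classes with under 10 cells in a sample) and bars are means; Casp1 points of microglia and of macrophages and monocytes, 42.2 to 88.0, all lie above the malignant points of 1.32 to 6.40.

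Casp1, the caspase that matures interleukin-1β and interleukin-18, showed the widest separation. In malignant cells it stood at 3.26, 1.32, 3.23, 2.04 and 6.40 CPM. In microglia it stood at 88.0, 60.3, 76.9, 51.7 and 42.2 CPM. No microglial sample overlapped the malignant ones, and the log2 fold change was 4.82 ± 0.34 (SE; edgeR adjusted p = 1.11e-13). Macrophages and monocytes gave 84.8, 52.0, 84.3, 66.9 and 57.9 CPM, again without overlap (4.91 ± 0.34, edgeR adjusted p = 5.65e-14). These myeloid classes lay side by side, with means of 69.2 ± 15 (SD, n = 5) and 63.8 ± 18.6 CPM whose ranges overlap. Macrophage markers in microglia stood at 30.4% of their macrophage level, and their part in these like values was not tested. Lymphocytes, with 27 cells in the Xevinapant samples alone, held 5 Casp1 UMIs and neutrophils 10, and both were higher than malignant cells (3.71 ± 1.29, edgeR adjusted p = 0.0352, and 3.68 ± 0.92, adjusted p = 0.00146). The neutrophil call was lost without Xevinapant 1 and 2 (3.36, adjusted p = 0.0937). Summed microglia markers stood at 23.4% of their microglial level in lymphocytes and at 16.6% in neutrophils, and their part in these values was not tested. Fibroblasts followed at 35.0, 19.6, 9.21, 12.3 and 10.8 CPM (2.78 ± 0.40, edgeR adjusted p = 7.91e-07). In fibroblasts the summed microglia markers stood at 13.7% of their microglial level and the macrophage markers at 0.459% of their macrophage level. The microglia markers summed to 183 to 213 CPM over the 5 fibroblast samples. P2ry12, which is among them, had a UMI in 0.941% of fibroblasts and 81.6% of microglia. The part of these markers in the fibroblast Casp1 value was not tested. Endothelial cells had 13 UMIs in all and 0 in 3 of 5 samples, where 3 counts would be 10.8 to 13.3 CPM, and the difference was not called (1.32 ± 0.69, edgeR adjusted p = 0.120).

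Casp4, the sensor of cytosolic lipopolysaccharide that cleaves gasdermin D, had its highest level in neutrophils. The 3 neutrophil samples with at least 10 cells stood at 128, 62.5 and 137 CPM on 31 UMIs, against 15.1, 10.7, 16, 18.9 and 18.7 CPM in malignant cells, and did not overlap them (2.94 ± 0.41, edgeR adjusted p = 6.04e-07). Macrophages and monocytes gave 32.3, 16.4, 37.7, 22.8 and 40.5 CPM, whose lowest sample fell within the malignant range (1.32 ± 0.26, adjusted p = 3.93e-05). Fibroblasts at 23.6 ± 3.72 CPM (SD, n = 5) did not overlap malignant cells (1.04 ± 0.27, adjusted p = 0.00195), but plain library size left 0.53 with adjusted p = 0.0759. In microglia Casp4 stood at 23.9, 23.2, 12.6, 15.6 and 22.0 CPM, inside and just above the malignant range. Its call there (0.70 ± 0.28, adjusted p = 0.0275) was lost under plain library size (0.22, adjusted p = 0.461), with DESeq2 (0.50, adjusted p = 0.105), without the low-count filter (0.58, adjusted p = 0.0789), and without vehicle 1 and 3, vehicle 2, or Xevinapant 3 and 4 (0.55 to 0.58). In lymphocytes 8 UMIs gave 1.84 ± 0.67 (adjusted p = 0.0437), a call lost under 4 of the alternatives (adjusted p = 0.0510 to 0.0848).

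Casp9, the initiator activated on the apoptosome, and Apaf1, its scaffold, were both higher in the myeloid classes. Casp9 was even across malignant samples, at 13, 14.1, 14.6, 16.4 and 14.7 CPM. Microglia stood at 40.3, 39.4, 34.8, 54.6 and 44.7 CPM, clear of that range in each sample (2.01 ± 0.19, edgeR adjusted p = 2.57e-10). Macrophages and monocytes stood at 32.3, 43.8, 44.4, 38.2 and 45.1 CPM (1.88 ± 0.20, adjusted p = 1.21e-09), and 3 neutrophil samples at 31.9, 66.9 and 52.5 CPM (2.29 ± 0.38, adjusted p = 9.28e-06). The neutrophil values rested on 21 Casp9 UMIs. The 31.9 CPM came from a vehicle sample of 27 neutrophils with 31329 UMIs of all genes, too few to place its level. The 3 myeloid classes overlapped each other. Endothelial cells were higher by 0.79 ± 0.27 (adjusted p = 0.0156), which fell to 0.47 (adjusted p = 0.213) without Xevinapant 1 and 2, whose 50.9 CPM was the highest of 5, and adjusted p was 0.0530 without Xevinapant 3 and 4. Mural cells were higher by 1.42 ± 0.42 (adjusted p = 0.0129) on 13 UMIs, and this was 0.93 (adjusted p = 0.293) without vehicle 1 and 3. Lymphocytes held 0 Casp9 UMIs in the samples tested, where 3 counts would be 43.0 and 63.7 CPM, and their difference from malignant cells was not called (adjusted p = 0.160).

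Apaf1 was higher than in malignant cells in 6 of the 7 classes and in lymphocytes missed the threshold (0.98 ± 0.43, edgeR adjusted p = 0.0971). Malignant samples stood at 47.7, 45.8, 56.7, 48.1 and 44.7 CPM. Endothelial cells had the highest mean of the classes with 5 samples, at 102, 88.6, 93.7, 141 and 144 CPM (1.38 ± 0.17, adjusted p = 3.99e-08). Macrophages and monocytes at 101 ± 6.59 CPM (SD, n = 5; 1.47 ± 0.15, adjusted p = 5.07e-10) did not overlap malignant cells either. The means of these 2 classes differed by less than the endothelial spread of 26.6 CPM. Microglia at 63.1 ± 10.9 CPM overlapped malignant cells in 1 sample, at 46.8 CPM, and were higher by 0.82 ± 0.16 (adjusted p = 3.46e-05), or 0.34 under plain library size (adjusted p = 0.0381). Neutrophils (1.41 ± 0.29), mural cells (1.06 ± 0.28) and fibroblasts (0.86 ± 0.16) were called as well. On 34 UMIs in all, neutrophils stood at 31.9 CPM in the vehicle sample tested and at 98.2 and 116 CPM with Xevinapant. The vehicle value lay below every malignant sample. That vehicle sample held only 27 neutrophils and 31329 UMIs of all genes, too few to place its Apaf1 level. The neutrophil call was lost under stricter gates (1.12, adjusted p = 0.0828), as was the mural call (1.0, adjusted p = 0.0879), which was lost also without Xevinapant 3 and 4 (0.88, adjusted p = 0.110).

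Casp2, the initiator caspase of the PIDDosome that guards against errors of cell division, ran the other way. Malignant samples stood at 54.6, 49.3, 44.8, 50.8 and 50.8 CPM and fibroblasts at 15.8, 19.6, 14.7, 18.9 and 21.5 CPM, far apart (-0.95 ± 0.24, edgeR adjusted p = 0.0014). Microglia stood at 19.4, 13.9, 23.2, 13.7 and 34.0 CPM, also below every malignant sample (-0.77 ± 0.23, adjusted p = 0.00444). Macrophages and monocytes averaged 26.1 ± 12.1 CPM (SD, n = 5), and vehicle 4 at 46.6 CPM reached the malignant range (-0.64 ± 0.23, adjusted p = 0.0146). That call was lost without vehicle 1 and 3 (-0.58, adjusted p = 0.0722) and without Xevinapant 1 and 2 (-0.49, adjusted p = 0.0757). Endothelial cells at 40.3 ± 16.5 CPM were not called (-0.20 ± 0.25, adjusted p = 0.545). Malignant marker genes stood at 15.3%, 6.65% and 5.05% of their malignant level in the 3 classes called lower, at 21.5% in endothelial and 26.2% in mural cells, and their part in the remaining Casp2 was not tested.

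Casp6, an executioner caspase that cuts lamins, was highest in stroma. Endothelial cells stood at 57.7, 75.3, 46.8, 90.1 and 86.3 CPM, above every malignant sample (23.3, 25, 42.7, 27.8 and 31.6 CPM), with a log2 fold change of 1.39 ± 0.23 (edgeR adjusted p = 1.11e-05). Fibroblasts at 41.0 ± 12.9 CPM (SD, n = 5) overlapped the malignant range and were higher by 1.04 ± 0.21 (adjusted p = 0.000167). Mural cells at 56.7 ± 11.7 CPM (n = 3) lay above the malignant samples but missed the threshold (1.03 ± 0.41, adjusted p = 0.0668). Microglia and macrophages gave 0.46 ± 0.22 (adjusted p = 0.0683) and 0.48 ± 0.22 (adjusted p = 0.0504), and under plain library size both were near 0.

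Htra2, the mitochondrial serine protease that antagonizes IAPs once released, was the member with no called difference between classes. Malignant samples ran from 66.6 to 76.7 CPM and microglia from 47.8 to 65.3 CPM. Its direction in microglia and in fibroblasts depended on the scaling, with 0.14 and 0.13 under TMM and -0.34 and -0.39 under plain library size. In macrophages and monocytes the fold change went from -0.05 under TMM to -0.49 (adjusted p = 0.0181) under plain library size, and in neutrophils from -1.13 (adjusted p = 0.0693) to -1.6 (adjusted p = 0.00527), where Casp2 also became called (-1.35, adjusted p = 0.0243).

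The share of cells with a UMI followed the levels once depth was equalized. Each cell was thinned to 2000 UMIs, since median depths ran from 5874 to 9748 UMIs in microglia of the single matrices and from 10422 to 16398 in malignant cells. Casp1 was then seen in 8.97% of 468 microglia, 12% of 874 macrophages and monocytes and 0.659% of 33685 malignant cells. Without thinning these shares were 35.2%, 31.4% and 4.92%. P2ry12, a purinergic receptor that marks microglia and should be absent from tumor cells, was seen in 38.5% of thinned microglia, which it helped to gate, and 0.324% of thinned malignant cells. Mrc1, a mannose receptor used to gate macrophages, was seen in 35.0% of thinned microglia and 37.3% of thinned macrophages and monocytes (59.4% and 49.8% without thinning), so it did not separate these classes. Casp9 was seen in 10.9% of microglia and 2.77% of malignant cells. Casp2 gave the opposite order, 4.27% against 9.57%, and Htra2 gave 10.7% against 12.8%.

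Within the tumor, malignant cells of at least 8000 UMIs were gated into 14231 OPC-like, 5097 AC-like, 1534 NPC-like and 934 MES-like cells, named after oligodendrocyte progenitors, astrocytes, neural progenitors and mesenchyme. AC-like cells carried more Casp1, Casp4 and Casp6 and less Casp2 and Apaf1 than OPC-like cells of the same sample. Of 21 comparisons with OPC-like cells, 12 passed the threshold. Of these, 6 also did so under stricter gates and with each sample left out, the only alternatives run for states. AC-like cells were higher in 3 members (20.6% of all genes) and lower in 2 (21.8%), MES-like cells higher in 4 (20.4%) and lower in 2 (16.8%), and NPC-like cells lower in 1 (10.8% of all genes in each direction).

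**Figure D2:**
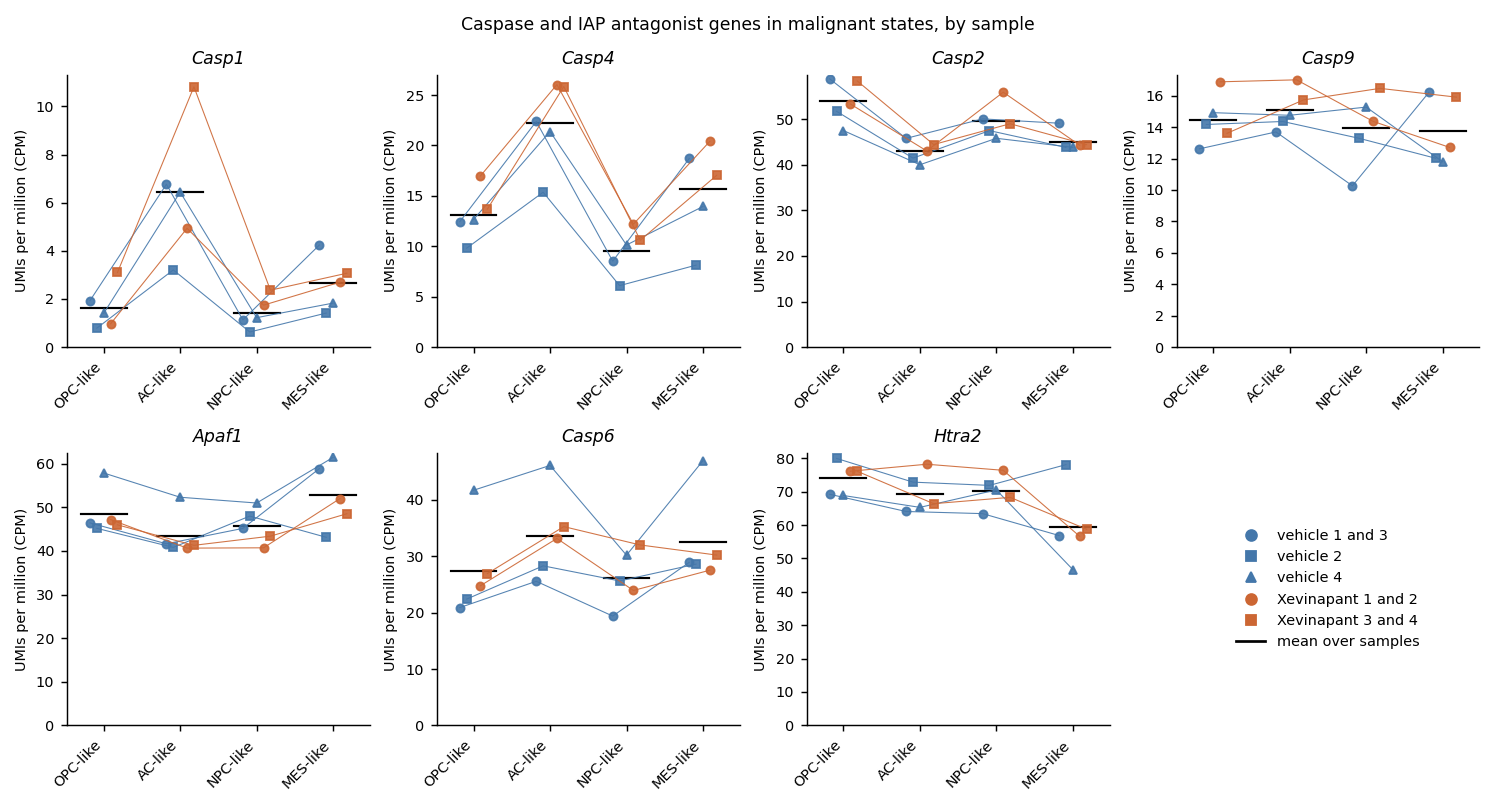
Level of each measured member in 4 states of malignant cells. The vertical axis is CPM of the state on a linear scale from 0, points are the 5 samples joined by a line (blue vehicle, orange Xevinapant) and bars are means; every line for Casp1 rises from OPC-like to AC-like cells, from 0.785 to 3.10 up to 3.21 to 10.8.

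Casp1 stood at 1.93, 0.785, 1.40, 0.965 and 3.10 CPM in OPC-like cells and at 6.76, 3.21, 6.44, 4.93 and 10.8 CPM in AC-like cells. Every AC-like sample lay above every OPC-like sample. Within a sample AC-like cells were 3.49- to 5.12-fold higher in 5 of 5 samples, on 1061 and 511 UMIs, and the fitted log2 fold change was 2.02 ± 0.16 (edgeR adjusted p = 2.23e-08). Microglia markers were measured beside these low levels. Summed microglia markers stood at 2.36% of their microglial level in OPC-like cells and at 1.90% in AC-like cells, macrophage markers stood at 0.101% and 0.0980% of their macrophage level, and Casp1 stood at 2.56% and 10.1% of its own microglial level. The part of RNA from other cells in these Casp1 levels was not tested. Thinned to 2000 UMIs, 1.61% of AC-like and 0.253% of OPC-like cells held a Casp1 UMI, against 0.373% and 0.337% for P2ry12. Without thinning, the Casp1 shares were 14.0% and 3.13% at median depths of 18698 to 26435 and 15815 to 20696 UMIs. In NPC-like cells Casp1 stood at 2.22% of its microglial level against 1.86% for the markers. The MES-like difference (0.70 ± 0.23, edgeR adjusted p = 0.0213) rested on 73 UMIs and reversed to -1.39 (adjusted p = 0.194) under stricter gates, which left 106 cells and 3 UMIs, and it was lost without vehicle 1 and 3, vehicle 2, or Xevinapant 1 and 2 (adjusted p = 0.0534 to 0.0996).

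Casp4 followed the same order with a smaller step. It stood at 12.4, 9.81, 12.7, 17.0 and 13.7 CPM in OPC-like cells and at 22.4, 15.4, 21.4, 26.0 and 25.8 CPM in AC-like cells, 1.53- to 1.89-fold higher within each of 5 samples (0.78 ± 0.08, edgeR adjusted p = 3.67e-07). The group ranges overlap only between samples, through AC-like vehicle 2 and OPC-like Xevinapant 1 and 2. NPC-like cells were lower, at 8.52, 6.09, 10.1, 12.2 and 10.6 CPM (-0.45 ± 0.09, edgeR adjusted p = 0.00207), below OPC-like cells of the same sample in 5 of 5. After thinning, 4.71% of AC-like, 2.52% of OPC-like and 1.96% of NPC-like cells held a Casp4 UMI. Casp12, whose product resides at the endoplasmic reticulum, went from 5.03 ± 2.17 CPM in OPC-like to 20.5 ± 6.46 CPM in AC-like cells (SD, n = 5; 2.10 ± 0.12, edgeR adjusted p = 3.29e-10), so the 3 neighbours on chromosome 9 were all higher in that state. In microglia Casp12 was lower than in malignant cells (-1.73 ± 0.44, adjusted p = 0.00116), where Casp1 was higher.

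The remaining members moved by less. Casp6 was 1.11- to 1.34-fold higher in AC-like than OPC-like cells in 5 of 5 samples (0.33 ± 0.08, edgeR adjusted p = 0.00275). Casp2 was 0.761- to 0.842-fold the OPC-like level in 5 of 5 (-0.31 ± 0.04, edgeR adjusted p = 1.85e-05). Apaf1 was lower by a log2 of -0.15 ± 0.05 (adjusted p = 0.0284), and that call was lost under stricter gates and on leaving out vehicle 1 and 3, vehicle 4, or either Xevinapant sample, with adjusted p values of 0.0584 to 0.0971. Casp9, even across states at means of 13.7 to 15.1 CPM, was not called in any, and for AC-like cells its log2 fold change was 0.08 ± 0.09. In MES-like cells Htra2 was lower in 5 of 5 samples (-0.29 ± 0.07, edgeR adjusted p = 0.0027). Casp2 (-0.21 ± 0.05), Casp6 (0.29 ± 0.09), Casp4 (0.30 ± 0.09) and Apaf1 (0.18 ± 0.06) were also called there, and none of these 4 calls held under the stricter gates. Without vehicle 1 and 3, Casp4 (0.22), Casp6 (0.25) and Apaf1 (0.12) were no longer called either.

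Cycling malignant cells carried more Casp2, Htra2 and Apaf1 and less Casp4 and Casp6 than non-cycling ones. The 16508 cycling cells held UMIs of at least 4 of 6 division genes and the 2857 non-cycling cells at most 1. Of the 7 members 3 were higher (32.0% of all genes) and 2 lower (34.2%). Casp2 went from 37.9, 37.8, 35.3, 40.4 and 38.9 CPM to 57.4, 50.1, 45.8, 55.5 and 53.5 CPM, with no overlap (0.53 ± 0.05, edgeR adjusted p = 4.41e-06). Htra2 rose from 60.9 ± 6.63 to 73.7 ± 5.64 CPM (SD, n = 5; 0.35 ± 0.05, adjusted p = 0.000131) and Apaf1 from 43.2 ± 3.12 to 48.3 ± 5.01 CPM (0.22 ± 0.05, adjusted p = 0.00166), each in 5 of 5 samples.

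**Figure D3:**
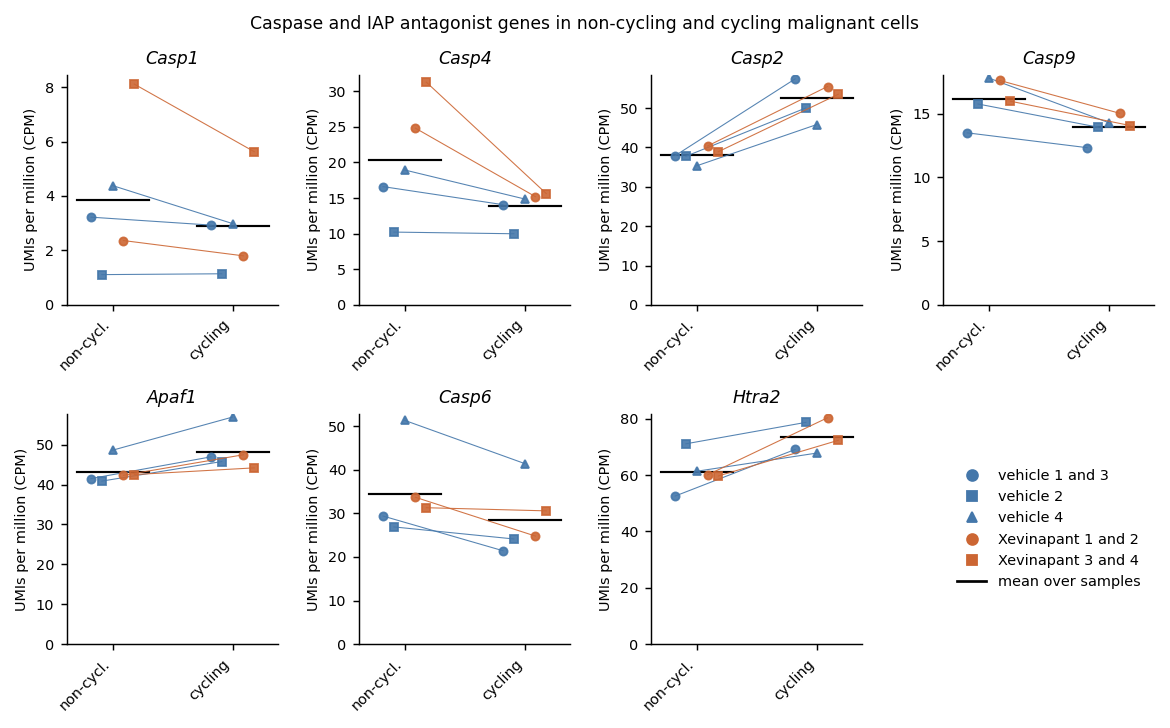
Level of each measured member in non-cycling and cycling malignant cells. The vertical axis is CPM on a linear scale from 0, points are the 5 samples joined by a line (blue vehicle, orange Xevinapant) and bars are means; the Casp2 lines all rise, from 35.3 to 40.4 up to 45.8 to 57.4, and no Casp4 line does.

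Casp4 fell from 16.6, 10.2, 18.9, 24.8 and 31.3 CPM in non-cycling to 14.1, 9.98, 14.9, 15.2 and 15.6 CPM in cycling cells. The step was smallest in vehicle 2 and largest in Xevinapant 3 and 4 (-0.47 ± 0.13, edgeR adjusted p = 0.00707). Casp6 was lower by a log2 of -0.21 ± 0.07 (adjusted p = 0.0257), a call lost without vehicle 1 and 3, vehicle 4, or Xevinapant 1 and 2 (adjusted p = 0.0636 to 0.107). Casp1 (-0.32 ± 0.15, adjusted p = 0.0725) and Casp9 (-0.14 ± 0.07, adjusted p = 0.0956) were not called. Casp9 was lower in 5 of 5 samples nonetheless. Cycling cells held a mean of 27835 UMIs and non-cycling cells 14918, and the part of that depth in these differences was not tested. Each measured member, called or not, had the opposite sign in AC-like against OPC-like cells. State and cycling were fitted separately on the same malignant cells, and the part of either in the differences of the other was not tested.

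The partners of these genes gave the setting for each pattern. Of the inflammasome and pyroptosis list, 11 of 11 genes tested were higher than in malignant cells in microglia and in macrophages and monocytes, and 10 of 11 in neutrophils, where 30.5%, 32.2% and 23.0% of all genes were higher. The list median was 8.47 in microglia, against -0.12 over all genes. Among these were Pycard, the adaptor that joins sensors to caspase-1 (8.74 ± 0.27 in microglia), and Nlrp3, a sensor (8.53 ± 0.25). In the comparison of malignant states only 3 of the list passed the low-count filter. Genes low in malignant cells enter the class comparison through classes where they are high, so the counts of 11 and 10 were partly fixed by the filter. In AC-like cells 2 of the 3 tested members of that list were higher than in OPC-like cells (20.6% of all genes), Il18 (0.72 ± 0.11) and Gsdmd (0.48 ± 0.13), which encode a cytokine and the pore-forming substrate. Of 8 genes of the interferon and NF-kB response, 4 were higher and 1 lower in AC-like cells, beside 20.6% and 21.8% of all genes. The guanylate-binding protein genes Gbp2 (2.05 ± 0.28) and Gbp5 (1.45 ± 0.21) led, with Irf8 lower (-0.25 ± 0.10). The same list was higher in 7 and lower in 1 of 8 genes in microglia (30.5% and 32.9% of all genes), and higher in 8 of 8 in endothelial cells (20.7%).

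Caspases outside the members differed in their own ways. Casp8, the initiator of death receptor signalling, was 102 ± 21.1 CPM in microglia and 1.28 ± 0.335 CPM in malignant cells (SD, n = 5; 6.79 ± 0.25, edgeR adjusted p = 8.98e-21). Microglia markers in malignant cells stood at 2.11% of their microglial level, and their part in the low malignant level of Casp8, and so in the size of that fold change, was not tested. In cycling cells Casp12 was lower (-1.08 ± 0.16). Pidd1, which recruits caspase-2, was lower in all 7 non-malignant classes, from -3.43 in lymphocytes to -1.75 in endothelial cells, and higher in cycling cells (1.28 ± 0.06). Cradd, the adaptor between them, was instead higher in microglia (1.36 ± 0.31). The IAP gene Birc3 was higher than in malignant cells in all 7 classes, from 1.10 in endothelial cells to 4.27 in neutrophils. Naip2, Naip5 and Naip6, sensors of bacterial protein that share near-identical sequence, were higher in microglia by 8.76 to 10.2, and how the probes tell them apart was not tested. Of the 8 IAP genes tested between classes, 5 passed the low-count filter between malignant states. Genes very low in malignant cells enter the class comparison through classes where they are high, so such differences were partly fixed by the filter. Birc5, a division gene despite its family name, was 3.84 ± 0.11 higher in cycling cells.

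Of the apoptosome and mitochondrial release list, Bid (3.47 ± 0.23), Bak1 (1.78 ± 0.15) and Bax (0.84 ± 0.18), which open the outer mitochondrial membrane, were higher in microglia, where 3 of 9 genes tested were higher and 3 lower, shares close to the 30.5% and 32.9% of all genes, with Aven (-0.68 ± 0.21) and Aifm1 (-0.52 ± 0.19) among the lower ones. In cycling cells 7 of 10 genes of that list were higher and 2 lower, beside 32.0% and 34.2% of all genes. Of 8 caspase substrates 4 were lower in AC-like than OPC-like cells (21.8% of all genes), with Dffa (-0.28 ± 0.06) and Dffb (-0.27 ± 0.07), the inhibitor and nuclease of DNA fragmentation, at the head.

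The comparison of Xevinapant with vehicle asks whether the mRNA of these genes differed between the groups, where treatment cannot be told apart from batch. In 59 member values over 9 classes and states edgeR's quasi-likelihood test called 0, with 4 at an unadjusted p under 0.05, and DESeq2 called 0 of 59 with 0 at an unadjusted p under 0.05. By edgeR the background was 0% of genes called in malignant, OPC-like, AC-like and NPC-like cells, microglia, macrophages and monocytes, and endothelial cells, 0.00858% in MES-like cells and 0.0110% in fibroblasts. DESeq2 called more genes in most of these, 273 of 14331 in malignant, 168 in OPC-like, 175 in AC-like, 26 in NPC-like and 82 in MES-like cells, 23 in fibroblasts, 10 in macrophages and monocytes, 1 in microglia and 0 in endothelial cells, where 214 were at an unadjusted p under 0.05. By edgeR an unadjusted p under 0.05 was found for 1716 of 14331 genes in malignant cells and 611 of 9395 in microglia. It was found for 480 of 9204 in macrophages and monocytes, 563 of 7045 in endothelial cells and 510 of 9054 in fibroblasts. Casp1, Casp4 and Casp9 in endothelial cells and Casp9 in fibroblasts had counts too low to be tested.

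**Figure D4:**
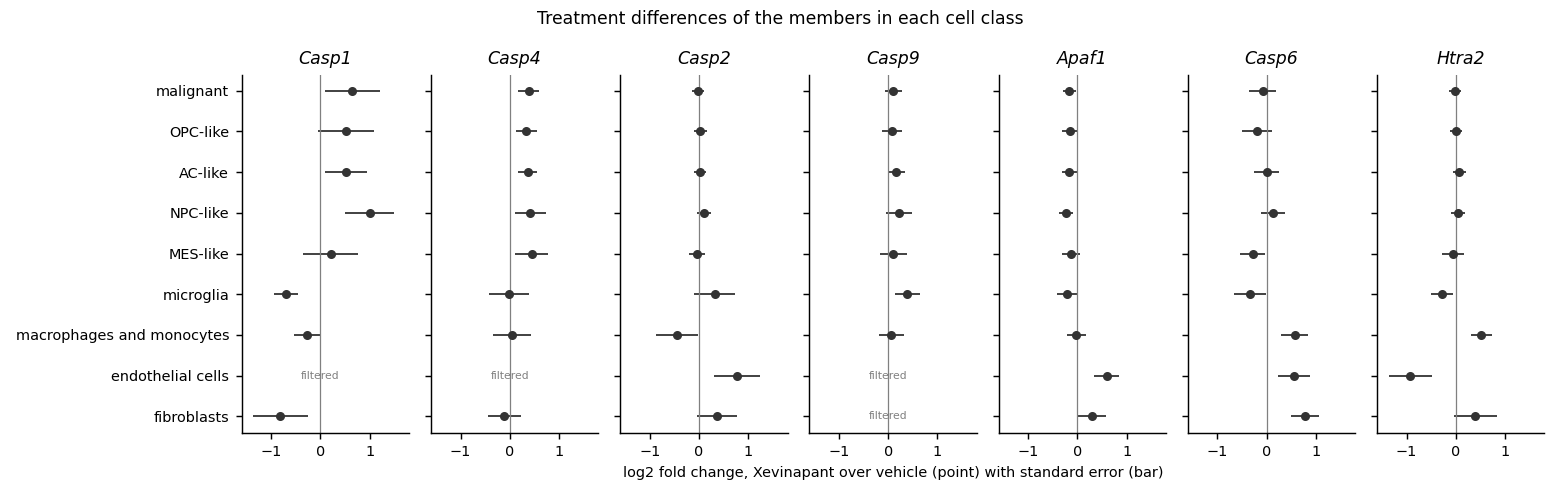
Treatment difference of each measured member in 9 cell classes and malignant states. The horizontal axis is the log2 fold change of Xevinapant over vehicle. Points are the fitted values of edgeR and bars are their standard errors, and values filtered for low counts are marked. None of the differences passed the adjusted threshold.

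In malignant cells Casp2 (-0.01 ± 0.12), Htra2 (-0.02 ± 0.12), Casp6 (-0.08 ± 0.27), Casp9 (0.11 ± 0.17) and Apaf1 (-0.16 ± 0.14) had small fitted log2 fold changes of Xevinapant against vehicle, with edgeR adjusted p values of 0.633 to 0.973. Casp4 stood at 15.1, 10.7 and 16 CPM in vehicle and at 18.9 and 18.7 CPM with Xevinapant (0.39 ± 0.21, edgeR adjusted p = 0.477). Casp1 stood at 3.26, 1.32 and 3.23 against 2.04 and 6.40 CPM, with Xevinapant 1 and 2 inside the vehicle range and Xevinapant 3 and 4 above it (0.65 ± 0.56, adjusted p = 0.638). Among the malignant samples Xevinapant 3 and 4 also had the highest AC-like marker sum, 2097 CPM against 1149 to 1696 in the other 4, and its part in the Casp1 level was not tested. Some other marker sums in malignant cells separated the treatments, which the AC-like sum did not. Markers of any immune cell stood at 19.3 and 14.3 CPM with Xevinapant against 9.67 to 13.6 in vehicle. Macrophage markers stood at 24.9 and 7.60 CPM with Xevinapant against 3.43 to 5.12 in vehicle, and fibroblast markers at 226 and 81.3 against 25 to 69.8, and their part in the Casp1 and Casp4 levels was not tested. An exact two-sided permutation test of 3 samples against 2 has 0.1 as its smallest p. The thinned share of malignant cells with Casp1 was 0.447% ± 0.167 in vehicle and 0.837% ± 0.534 with Xevinapant (SD; exact permutation p = 0.4).

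The 4 values with an unadjusted p under 0.05 lay outside the malignant cells. In microglia Casp1 stood at 88.0, 60.3 and 76.9 CPM in vehicle and at 51.7 and 42.2 CPM with Xevinapant, with no overlap (-0.70 ± 0.24, edgeR adjusted p = 0.714). Set against the treatment difference in malignant cells, the microglial difference was -1.26 ± 0.56 (edgeR adjusted p = 0.839). That test called 0 of 14 member values, 7 each in microglia (0.0144% of genes called) and in macrophages and monocytes (0%), and the Casp1 value in microglia was at an unadjusted p of 0.0377. Htra2 in macrophages and monocytes stood at 39.0, 41.1 and 42.2 against 57.8 and 58.9 CPM (0.51 ± 0.21, adjusted p = 0.902). Apaf1 in endothelial cells stood at 102, 88.6 and 93.7 against 141 and 144 CPM (0.59 ± 0.26, adjusted p = 0.602). Casp6 in fibroblasts stood at 35.0, 27.5 and 35.0 against 60.3 and 47.5 CPM (0.77 ± 0.29, adjusted p = 0.847). These groups do not overlap in any of the 4, but the 4 were picked by that low p, and none passed the adjustment. The share of all genes whose groups do not overlap was not measured, so the lack of overlap adds nothing to these p values. After thinning, the shares of cells gave exact permutation p values of 0.6, 0.2, 0.4 and 0.1 in the same order. Markers of other cells moved beside some of the 4 values. Malignant markers in macrophages and monocytes summed to 263 and 398 CPM with Xevinapant against 406 to 778 in vehicle. In endothelial cells fibroblast markers summed to 251 and 135 CPM with Xevinapant against 39.9 to 115, and malignant markers to 419 in Xevinapant 1 and 2 against 1648 to 1970 in the other 4 samples. Fibroblast markers in microglia summed to 51.7 and 28.3 CPM with Xevinapant against 13.9 to 27.4 in vehicle, while malignant markers in fibroblasts overlapped, at 775 and 1299 against 914 to 1691. The part of these markers in the values was not tested.

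Xiap, Birc2 and Birc3, which encode the IAPs that a SMAC mimetic targets, were not called between treatments by edgeR. In malignant cells Xiap had a log2 fold change of -0.63 ± 0.24 (edgeR adjusted p = 0.401) and Birc2, which encodes cIAP1, one of 0.13 ± 0.12 (adjusted p = 0.643). In microglia Birc3, which encodes cIAP2, had one of -0.86 ± 0.28 (edgeR unadjusted p = 0.0101, adjusted p = 0.714). The cytokine genes Il1b (-0.84 ± 0.28) and Il1a (-0.52 ± 0.21) were below an unadjusted p of 0.05 in microglia and were not called (adjusted p = 0.714 and 0.732). They were picked by low p from the 10 inflammasome and pyroptosis genes tested there. The median log2 fold change of those 10 was -0.07, against 0.02 over all genes. Of the 7 lists of partner genes, edgeR called no gene between treatments in the 9 classes and states.

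Genes with the most similar pattern over the 8 classes were sought among 12568 genes, by the correlation of mean log2 CPM. The points share libraries and depth, so the values only describe. Casp1 was most like Evi2a (r = 0.979 over 8 classes), Tgfbi (0.967) and Havcr2 (0.960). Casp4 was most like Phf1 (0.976), Ssc4d (0.967) and Zkscan14 (0.957), and Casp9 like Inip (0.978), Hspa1a (0.976) and Itpripl1 (0.971). Casp6 was most like Dock6 (0.984), Nid2 (0.980) and Slc35e1 (0.974), and Apaf1 like Crybg3 (0.936), Cbfa2t3 (0.901) and Helz2 (0.896). Casp2 was most like Prcc (0.975), Ireb2 (0.971) and Irf2bp1 (0.968), and Htra2 like Bub1 (0.992), Tyw1 (0.991) and Fanci (0.988).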

How the data were processed

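The authors deposited 4 matrices of unnormalized UMI counts per group, whole numbers per gene and barcode, mapped to mm10 with Cell Ranger per the labels, and their later filters, doublet removal and integration are not in the files. Barcodes were kept from 200 genes upwards, up to 10% mitochondrial UMIs and from a complexity of 0.8. Cells were gated by the number of distinct marker genes with a UMI, at thresholds set after seeing the files. Summed marker UMIs were used only for the share of malignant markers in a barcode. Barcodes passing gates of 2 classes were left out in place of a doublet caller, and macrophages and monocytes were merged. States and cycling were gated only in malignant cells of at least 8000 UMIs. Alike matrices of a group were summed, also decided after seeing the files. Counts were summed over the cells of a class in each sample that held 10 or more of them, and tested with edgeR 4.0.16 (TMM, its low-count filter, quasi-likelihood test, Benjamini-Hochberg at 0.05). Shares of cells were compared by exact permutation tests after thinning to 2000 UMIs (seed 1). The numbers of the matrices come from the files and do not pair them, as same-numbered matrices correlated at -0.34 to 0.28 in their deviations. Floors of 3 counts cover counting error only. Standard errors of fold changes also take in the estimated spread between samples, and SDs are over samples. Alternatives were DESeq2 1.42.0, plain library size, no low-count filter, stricter gates, 5% mitochondrial UMIs, leaving out the deepest 5% of barcodes, each matrix as 1 sample, a replicate block and each sample left out. States and cycling cells were refitted only under stricter gates and with each sample left out. Treatment differences were compared between classes only with each matrix as 1 sample and with each sample left out. The replicate block was used only for treatment.

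The members and gene lists were chosen with earlier results of these data known. Named genes are the members, up to 5 genes of each list by lowest p, and the 3 genes most similar to each member. All listed genes had an entry but Gsdme, and Septin4 was matched as Sept4. The edgeR steps were tested on simulated data. Some genes of these lists are not reported here. Software ran under R 4.3.3 and Python 3.11.15 with scipy 1.17.1.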

Additional observations from a re-analysis of the deposited data

How the results depend on the processing

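The count of called members in malignant states fell from 12 to 6 under stricter gates and ran from 7 to 11 when each sample was left out, with 7 without vehicle 1 and 3. Under stricter gates Casp1 in MES-like cells reversed to -1.39 (edgeR adjusted p = 0.194) and Apaf1 to -0.040 (adjusted p = 0.937), on 106 cells in place of 934. For cell classes the count was 26 and ran from 21 to 28 over all alternatives, with 21 of 42 values without either Xevinapant sample, since fewer classes then had enough cells. Of the alternatives, DESeq2 and plain library size each gave 27 and stricter gates 22 of 42. For cycling cells it was 5 and ran from 4 to 5. Over all genes, DESeq2 called 273 in malignant cells between treatments where edgeR called 0. Each matrix as 1 sample gave 826 there. The matrix number as a replicate block gave 33 there, 87 in AC-like and 29 in endothelial cells, where edgeR with its low-count filter on the joined samples called 0. Without that filter, edgeR on the joined samples called 0 in malignant, 4 in OPC-like, 352 in AC-like, 9 in NPC-like and 429 in MES-like cells. It then called 150 in microglia, 153 in macrophages and monocytes, 85 in endothelial cells and 227 in fibroblasts. The cause was not tested. The treatment tests called 0 members under every alternative. Leaving out a Xevinapant sample set 1 against 3, where the lone sample is assumed to vary like the vehicle ones, so the 0 there says little. With the 8 matrices and the matrix number as a replicate block they called 0 of 55, with 6 at an unadjusted p under 0.05. The block changed no call of a member, and same-numbered matrices are not known to be paired. Of 749 uncalled treatment values under alternatives, 70 changed sign. The shares of cells differed between treatments in 0 cases with or without thinning, where p cannot go below 0.1. Few UMIs stood behind the rarer classes: for Casp1 neutrophils held 10, lymphocytes 5 and mural cells 1.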
